A study of Mus musculus with 6 samples.

Results

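The genes described here are the organic ion and drug solute carriers: every protein-coding row of the table whose symbol belongs to the families Slc22a, Slco, Slc47a, Slc13a or Slc35a to Slc35f. This name rule took 46 of the 23390 genes listed, of which 15795 are protein coding. There were 23 carriers of the families Slc22a, Slco, Slc47a and Slc13a, called plasma membrane carriers here, and 23 Slc35 carriers. The rule used names and no measured value. It left out Slc13a2os, listed as an antisense RNA, and Slc22a13b-ps, listed as a polymorphic pseudogene.

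RNA was sequenced from viable intestinal epithelial cells (IEC) of the small intestine of C57BL/6 mice, sorted for the absence of the leukocyte marker CD45 and the presence of the epithelial marker EpCAM. Of the 6 libraries, 3 came from Maf.flox mice, whose Maf gene is flanked by loxP sites but which are not labelled with Cre, and 3 from Vil.Cre Maf.flox mice, in which Cre under the villin promoter recombines the same floxed Maf in intestinal epithelium. The former are called controls and the latter Cre-positive libraries here. Floxed Maf is thus shared by both groups, and no group carried Cre without it, so effects of Cre and of Maf loss cannot be told apart. The labels give no age, litter, cage or day, and do not state that each library was a separate mouse, so the p-values rest on the spread between libraries, part of which may be technical. Both sexes occurred in each group, by Xist and Y-linked counts, so the libraries of a group did not all come from a single mouse. The comparison of the genotypes asks what c-Maf, a transcription factor, contributes to RNA levels in these cells.

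Carriers of the plasma membrane families move charged small molecules into or out of cells. Slc22a proteins carry organic cations, carnitine and organic anions, Slco proteins carry bulky organic anions such as prostaglandins, steroid conjugates and many drugs, Slc47a proteins exchange organic cations for protons, and Slc13a proteins couple the uptake of sulfate, or of citrate and dicarboxylates such as succinate, to that of sodium. Most Slc35 proteins with a settled substrate work inside the cell: they bring nucleotide sugars, or the sulfate donor PAPS, from the cytosol into the Golgi or endoplasmic reticulum, where glycosyltransferases and sulfotransferases use them. In the intestine the first kind serves absorption and drug handling, and the second serves the glycosylation of mucins and of the brush border.

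Total counts ran from 17464355 to 24802525 per library, so that 1 CPM (a count scaled to library size by the TMM method) was 17.0 to 23.8 counts. Maf, the targeted gene, had 9398, 5615 and 3893 counts in the controls and 16, 1 and 1 counts in the Cre-positive libraries, each given in the order of replicates 1, 2 and 3, as below. It fell by 9.89 on the log2 scale (SE 0.704, adjusted p = 0.0133 in the quasi-likelihood test of edgeR). In 11 of the 14 alternative fits Maf was called too. Even this gene lost its call without control replicate 2, Cre-positive replicate 2 or Cre-positive replicate 3 (adjusted p up to 0.0563 in edgeR's test). Xist and Y-linked counts marked 1 control and 2 Cre-positive libraries as male and the other 2 and 1 as female, so sex was unequal between the groups. The 7 general epithelial markers (such as Epcam and Krt8) summed to 16514 to 19322 CPM in the controls and 15716 to 20706 CPM in the Cre-positive libraries. The 7 fibroblast and muscle markers summed to at most 0.677 CPM in any library, and Ptprc, which encodes CD45, averaged 1.14 CPM in the controls and 0.315 CPM in the Cre-positive libraries. The 7 enterocyte markers summed to 6321 to 15273 CPM in the controls and 3641 to 6865 CPM in the Cre-positive libraries, with control replicate 3 the lowest control. All 7 had log2 fold changes below 0 and 1, Lct, was called lower, beside 51.6% and 0.357% of all genes tested. The 8 tuft cell markers summed to 20.96 to 98.96 CPM in the controls and 15.67 to 19.14 CPM in the Cre-positive libraries, again with control replicate 3 the lowest control, and the 7 of them tested were all below 0 with none called. In edgeR's test 6 of 7 enterocyte and 7 of 7 tuft cell markers had an unadjusted p under 0.05, all lower, beside 9.25% of all genes. Groups did not overlap for 4 and 3 of them, all lower, beside 10.5% of all genes. The 6 Paneth cell markers summed to 4402 to 26758 CPM in the controls and 6210 to 8652 CPM with Cre, the 8 enteroendocrine markers to 299 to 810.3 and 267 to 526 CPM, the 8 leukocyte markers to 1812 to 2060 and 1963 to 2874 CPM, the 5 proliferation markers to 468 to 710.4 and 467 to 743 CPM, and the 3 endothelial markers to 5.22 to 6.64 and 5.13 to 9.04 CPM, none of these genes being called. Of the mean leukocyte sum of 1902 CPM in the controls and 2478 CPM with Cre, Cd74 alone gave 1873 and 2443 CPM. Of the mean endothelial sum of 5.7 and 7.3 CPM, Lyve1 alone gave 5.5 and 6.9 CPM. No listed marker was at 0 in all 6 libraries. The part of these shifts in the carrier values was not tested, and in such bulk samples fewer cells of a type and less RNA per cell cannot be told apart.

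Promoter sequence from RefSeq (GRCm38.p6) was matched by symbol for 37 of the 46 carriers, as the 250 bases before the transcription start, 17 from plasma membrane carriers and 20 from Slc35 carriers. Slc47a1, the carrier called below, had no window, so no result on these windows covers it. The windows of Slc22a14, Slco1a6 and Slco2a1 lay 175158, 22372 and 19775 bases from the deposited gene start. The median G+C content was 55.6% over the plasma membrane windows and 60.6% over the Slc35 windows, beside 52.4% over all 32841 windows of the table. Over the windows of tested carriers alone it was 64.0% (10 plasma membrane windows) and 60.4% (17 Slc35 windows), so the order of the classes turned. Upstream sequences are shown, chosen after their values were seen, for the carrier with the largest difference among those with a window, Slc13a2, and for the most abundant Slc35 carrier, Slc35c1. Each was shortened to the bases that lie outside the gene in both annotations, and runs 5′ to 3′ on the gene's strand with CG dinucleotides in capitals. They cover chr11:78422282-78422484, minus strand, with 5 CG in 203 bases, and chr2:92460539-92460768, minus strand, with 9 CG in 230 bases.
Slc13a2: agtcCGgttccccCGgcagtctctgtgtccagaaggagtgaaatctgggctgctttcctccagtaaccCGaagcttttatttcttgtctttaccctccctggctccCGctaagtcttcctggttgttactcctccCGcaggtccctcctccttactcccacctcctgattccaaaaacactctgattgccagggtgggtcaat
Slc35c1: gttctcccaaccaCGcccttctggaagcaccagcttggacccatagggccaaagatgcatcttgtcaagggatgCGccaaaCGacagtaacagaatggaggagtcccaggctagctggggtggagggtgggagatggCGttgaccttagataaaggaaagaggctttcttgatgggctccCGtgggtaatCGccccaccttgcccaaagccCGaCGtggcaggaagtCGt
The windows were searched on both strands for TGCTGAC, an arm of the Maf recognition element, for the whole palindromic element, which holds that arm, for GTTAAT, an arm of the HNF1 site, and for AAAGTCC, the core of the HNF4 site. The Maf arm was in 1 plasma membrane window, that of the untested Slc22a17, and in 0 Slc35 windows, beside 3.81% of all windows. The whole Maf element was in none of the carriers' windows and in 1 window of the whole table. The HNF1 arm was in 0 carrier windows, beside 6.43% of all windows, and the HNF4 core was in 1 plasma membrane and 3 Slc35 windows, beside 3.58% of all. Neither printed sequence held any of the 4 motifs.

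Per kilobase of gene, which allows levels to be compared between genes, both classes spanned a wide range. The deposited FPKM (fragments scaled to gene length and library size), averaged over the 6 libraries, was highest among plasma membrane carriers for Slc22a18, an orphan of its family that lies in an imprinted region, at 54.96. Slc13a2, the sodium-coupled citrate and dicarboxylate carrier, followed at 43.09. Slc13a1, the sodium-sulfate cotransporter, had 22.01 and Slc22a5, the carnitine transporter OCTN2, 21.00. Within Maf.flox the spread separated few of these neighbours: Slc22a18 had 54.43 ± 8.79 FPKM and Slc13a2 60.66 ± 15.4 FPKM, while Slc13a1 had 24.15 ± 8.50 and Slc22a5 24.34 ± 6.34 FPKM (SD, n = 3). In Vil.Cre Maf.flox the FPKM of Slc13a2 was 25.52 ± 5.51 (SD, n = 3). Slc22a23, an orphan, averaged 12.62 FPKM over the 6 libraries, Slc22a4, the ergothioneine and carnitine carrier OCTN1, 10.17 and Slco2b1, the most abundant organic anion transporting polypeptide, 7.01. Slc47a1, the proton-coupled organic cation exporter MATE1, ranked 13 of 23 with 2.19 FPKM.

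Among Slc35 carriers, Slc35c1, which brings GDP-fucose into the Golgi, had the highest mean FPKM over the 6 libraries at 66.25, followed by Slc35b1, a nucleotide exchanger of the endoplasmic reticulum, at 57.68 and the orphan Slc35f5 at 39.95. Slc35a4, Slc35e1 and Slc35f2, without a settled substrate, had 29.91, 28.59 and 25.31 FPKM. The UDP-N-acetylglucosamine carrier Slc35a3 had 20.94 FPKM, the PAPS carrier Slc35b2 20.29, the UDP-galactose carrier Slc35a2 16.46 and the CMP-sialic acid carrier Slc35a1 15.68. Slc35d1, a carrier of UDP-glucuronic acid and UDP-N-acetylgalactosamine, led its family with only 3.73 FPKM.

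**Figure D1:**
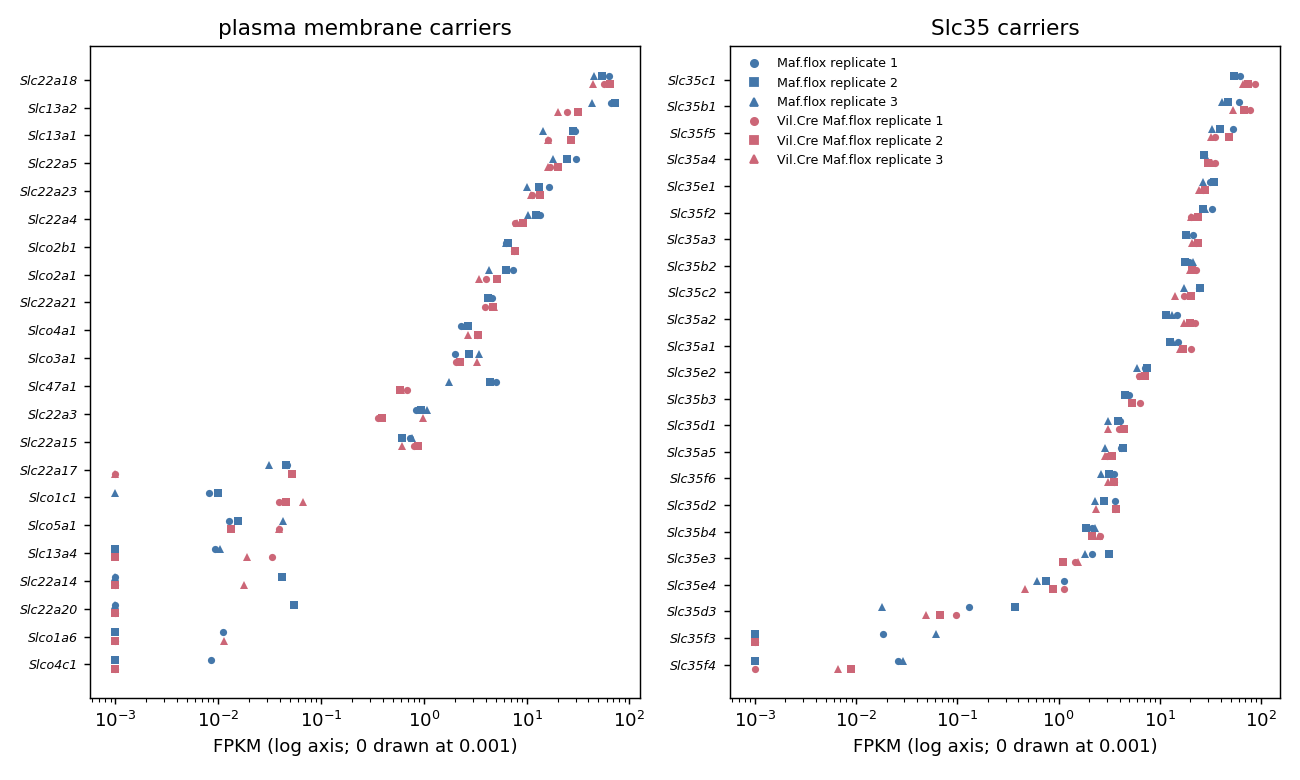
Deposited FPKM on a log axis for 22 plasma membrane carriers (left) and the 23 Slc35 carriers (right), ordered by their mean over the 6 libraries, with 1 point per library and values of 0 drawn at 0.001. Slc22a18 at 54.96 and Slc35c1 at 66.25 FPKM lead the 2 classes, and the carriers that were not tested lie at the bottom of both panels, among them the tested Slco5a1 on the left.

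A filter on low counts left 16 of 23 plasma membrane carriers and 20 of 23 Slc35 carriers for testing. The untested plasma membrane carriers were Slc13a4, Slc22a14, Slc22a17, Slc22a20, Slco1a6, Slco1c1 and Slco4c1, none above 8 counts in a library. Slco1c1, a thyroid hormone carrier, had 1, 1 and 0 counts in the controls and 4, 4 and 8 in the Cre-positive libraries, without overlap. The untested Slc35 carriers were Slc35d3, with at most 19 counts, and Slc35f3 and Slc35f4, with at most 4. With no filter on low counts none of these carriers was called by edgeR.

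Over all 13740 genes tested, 0.546% were called at an adjusted p of 0.05, 0.357% with lower and 0.189% with higher levels in the Cre-positive libraries (edgeR's quasi-likelihood test, p adjusted by Benjamini-Hochberg). Of the 16 plasma membrane carriers tested, 1 was called lower and 0 higher. Their median log2 fold change was -0.17, with 10 of 16 below 0, beside a median of -0.01 and 51.6% below 0 over all genes tested. The median was -0.07 without Cre-positive replicate 1 and -0.25 without Cre-positive replicate 2. An unadjusted p under 0.05 was found for 6 of the 16, 5 lower and 1 higher, beside 16.4% of all genes, 9.25% lower and 7.11% higher. At an adjusted p of 0.1, 2 of the 16 passed, Slc47a1 and Slc13a2, beside 2.71% of all genes. No library of one group overlapped the other for 3 lower and 1 higher carriers of the 16, beside 10.5% and 10.1% of all genes, or 20.6% in either direction.

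Slc47a1 was the carrier called. This gene (ENSMUSG00000010122, GRCm38 chromosome 11, 61343401 to 61378345, minus strand) encodes an exporter of metformin, creatinine and other organic cations. It had 17.1, 15.1 and 5.98 CPM in the controls and 2.33, 2.00 and 2.01 CPM in the Cre-positive libraries. Every Cre-positive library lay below every control, and control replicate 3 stood well below the other controls. That library was also the lowest control for the enterocyte markers (6321 CPM) and tuft cell markers (20.96 CPM). It was the lowest control for goblet, enteroendocrine, general epithelial, endothelial, and fibroblast and muscle markers too. For Paneth cell (26758 CPM), proliferation (710.4 CPM) and leukocyte markers (2060 CPM) it was the highest control. The part of these shifts in the difference was not tested. The level of Slc47a1 fell 6.00-fold, with a log2 fold change of -2.59 (SE 0.387, adjusted p = 0.0412 in the quasi-likelihood test of edgeR). In raw reads this was 406, 290 and 126 counts against 46, 34 and 47. The call was lost without any of the libraries other than control replicate 3, with adjusted p between 0.0583 and 0.225 in edgeR's test, and with sex as a term (adjusted p = 0.0595) and in limma-voom (adjusted p = 0.101). The log2 fold change stayed between -2.92 and -2.30 with 1 library left out in turn. The log2 ratio of mean CPM was -2.98 in males and -2.39 in females. In either sex, one of the genotypes is a single library.

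The other organic cation and carnitine carriers of Slc22a were closer to their control levels, and none was called. Slc22a4 had 34.6, 31.6 and 26.3 CPM in the controls and 19.5, 23.5 and 20.5 CPM in the Cre-positive libraries. The groups did not overlap, and the log2 fold change came to -0.54 (SE 0.135, adjusted p = 0.107 in the quasi-likelihood test of edgeR). It was called lower without control replicate 3 (adjusted p = 0.0269, edgeR) and by DESeq2 (adjusted p = 0.0281). In the other 12 of the 14 alternative fits it was not called, with adjusted p up to 0.414 in edgeR's test. Slc22a5, whose product takes up carnitine with sodium, had 93.3, 76.4 and 55.4 CPM in the controls and 51.7, 61.6 and 49.2 CPM in the Cre-positive libraries. Its groups overlapped through control replicate 3, with a log2 fold change of -0.47 (SE 0.185, adjusted p = 0.257, edgeR), and without that library it was called lower at -0.65 (adjusted p = 0.0354).

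Slc22a21, the mouse gene Octn3, lies between these 2 genes on chromosome 11 (Slc22a5 at 53864542 to 53891660, Slc22a21 at 53949965 to 53980332, Slc22a4 at 53983123 to 54028090, all on the minus strand of GRCm38). It had 16.6, 15.7 and 16.4 CPM in the controls and 14.3, 17.3 and 17.6 CPM in the Cre-positive libraries, with a log2 fold change of 0.01 (SE 0.130). The groups overlapped in full, unlike those of its neighbour Slc22a4. These 3 genes are close paralogs whose reads counting can divide, so their separate values are uncertain.

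Slc22a3, the corticosterone-sensitive organic cation transporter OCT3, had 3.78, 4.32 and 4.89 CPM in the controls and 1.62, 1.76 and 4.41 CPM in the Cre-positive libraries. The third Cre-positive library, the female of that group, lay within the control range, and the other two lay below it. The log2 fold change came to -0.72 (SE 0.380, adjusted p = 0.395, edgeR), and -1.35 without that library. The log2 ratio was -1.16 in males and -0.06 in females, a difference that was not tested. Slc22a15, a carrier of zwitterions such as ergothioneine, stood at 0.10. Of the 7 carriers of organic cations and carnitine, all tested, 5 were below 0, with a median of -0.47.

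The remaining Slc22a genes tested are orphans, and both had overlapping groups. Slc22a18 had 106.6, 93.9 and 78.0 CPM in the controls and 97.0, 110.5 and 74.7 CPM in the Cre-positive libraries (log2 fold change 0.02, SE 0.166). Its sign was negative with sex as a term, without control replicate 3, and without Cre-positive replicate 2. Slc22a23 stood at -0.17 (SE 0.171), turning to 0.02 without control replicate 1.

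Among sulfate, citrate and dicarboxylate carriers, Slc13a2 (GRCm38 chromosome 11, 78397087 to 78422217, minus strand), whose upstream sequence is given above, came closest to the threshold from outside. It had 158.5, 177.2 and 105.2 CPM in the controls and 59.6, 75.8 and 48.9 CPM in the Cre-positive libraries. The highest Cre-positive library was below the lowest control, the third again. The log2 fold change came to -1.26 (SE 0.225), a 2.39-fold lower level, and did not pass (edgeR's quasi-likelihood test, adjusted p = 0.0657). It passed without control replicate 3 (adjusted p = 0.00435), by DESeq2 (adjusted p = 3.49e-06) and with upper quartile scaling (adjusted p = 0.0460, edgeR), and its highest adjusted p over the 14 alternative fits was 0.274. The log2 ratio was -1.23 in males and -1.53 in females. By group means, Slc13a2 made up 16.7% of the summed CPM of the plasma membrane carriers in the controls and 8.92% in the Cre-positive libraries. Its exons overlap those of Slc13a2os on the opposite strand over 26.2% of their length. That antisense RNA averaged 7.73 CPM in the controls and 2.88 CPM in the Cre-positive libraries, and without strand in the counting, reads of the 2 genes cannot be told apart.

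Slc13a1, by CPM the largest plasma membrane carrier, had 226.9, 223.4 and 111.7 CPM in the controls and 124.1, 210.9 and 125.1 CPM in the Cre-positive libraries. The third control was the lowest of all 6 libraries and the second Cre-positive library was near the other controls. The log2 fold change of -0.29 (SE 0.322, adjusted p = 0.723, edgeR) was within its error.

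The organic anion transporting polypeptides were divided in direction, with 2 of 5 tested below 0 and a median of 0.24. Slco2a1, the prostaglandin transporter, had 98.7, 87.2 and 58.5 CPM in the controls and 54.3, 69.4 and 46.7 CPM in the Cre-positive libraries. The groups overlapped through control replicate 3 and Cre-positive replicate 2. In log2 fold change it stood at -0.52 (SE 0.216, adjusted p = 0.284, edgeR), and it was called lower only without control replicate 3 (-0.71, adjusted p = 0.0482) among the 14 alternative fits. Slco2b1, an uptake carrier of steroid sulfates and drugs, had 37.0, 40.1 and 37.8 CPM in the controls and 44.8, 45.6 and 45.7 CPM in the Cre-positive libraries. All Cre-positive libraries lay above all controls, by a small step: the log2 fold change came to 0.24 (SE 0.0882, adjusted p = 0.221, edgeR), and 0.23 to 0.29 with 1 library left out in turn. Slco4a1, a thyroid hormone carrier, had 11.1, 13.1 and 12.2 CPM against 15.8, 16.1 and 12.8 CPM, with overlapping groups and a log2 fold change of 0.30 (SE 0.147). Slco3a1 stood at -0.11 (SE 0.237), and above 0 with sex as a term (0.09), without control replicate 3 (0.09) and without Cre-positive replicate 1 (0.02), and Slco5a1, with at most 12 counts in a library, at 0.38 (SE 0.608).

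**Figure D2:**
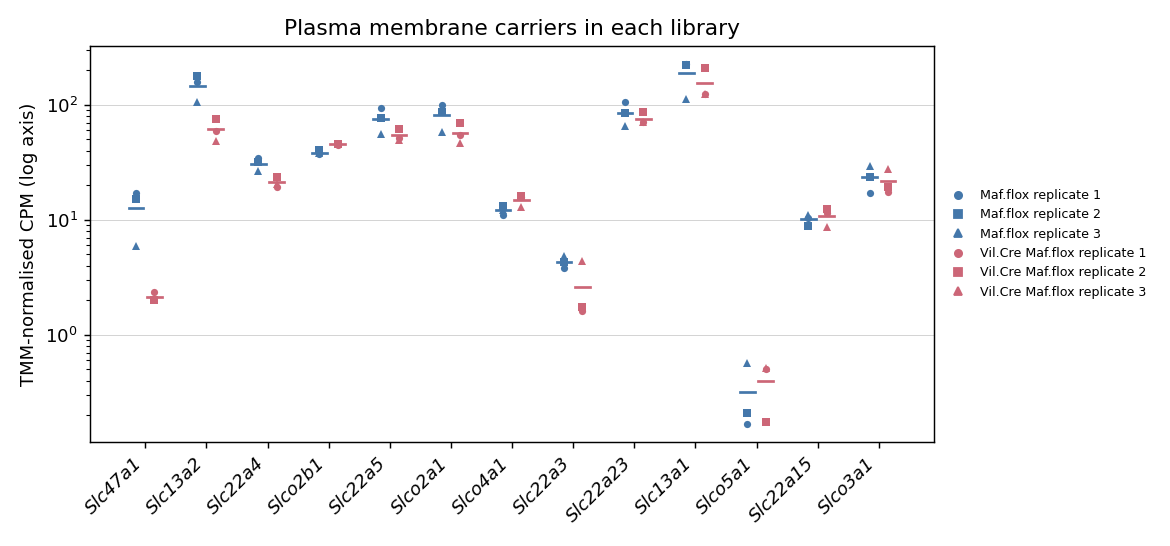
TMM-normalised CPM on a log axis for 13 plasma membrane carriers with the smallest p, increasing from left to right, with 1 symbol per library and a line at each group mean. Slc47a1, Slc13a2 and Slc22a4 are lower in all 3 Cre-positive libraries than in any control, Slco2b1 is higher in all 3, and the control replicate 3 symbol lies nearest to the Cre-positive group for Slc47a1 and Slc13a2.

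Of the 20 Slc35 carriers tested, 0 were called by edgeR's quasi-likelihood test, beside 0.546% of all genes tested. An unadjusted p under 0.05 was found for 8, 2 lower and 6 higher, beside 16.4% of all genes, 9.25% lower and 7.11% higher. DESeq2 called 2 (Slc35a2 higher and Slc35f2 lower, beside 5.77% of the genes it adjusted) and limma-voom 0. The median log2 fold change was 0.12, with 8 of 20 below 0. It was 0.00 without control replicate 3, -0.00 with sex as a term, and between 0.05 and 0.21 without 1 of the other libraries, so its sign was not fixed. Groups did not overlap for 2 lower and 5 higher carriers of the 20, beside 10.5% and 10.1% of all genes, or 20.6% in either direction. At an adjusted p of 0.1, 1 of the 20 passed, Slc35a2, beside 2.71% of all genes.

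The 10 carriers with a known nucleotide-sugar, PAPS or ATP substrate all had log2 fold changes above 0, from 0.04 to 0.57, with a median of 0.24. Of the 10 carriers tested without a settled substrate, 8 were below 0, with a median of -0.18. Over all genes 51.6% were below 0. None of either group was called, beside 0.546% of all genes tested, and the difference between them was not tested. The sign of the 10 was not the same in every fit: Slc35d1 and Slc35d2 were at -0.07 and -0.06 with sex as a term and at -0.06 and -0.02 without control replicate 3, and Slc35d1 at -0.06 without Cre-positive replicate 2.

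Slc35a2, which supplies UDP-galactose to the Golgi and lies on the X chromosome (7884028 to 7894492, plus strand, GRCm38), had the smallest p. It had 70.0, 54.8 and 63.4 CPM in the controls and 104.3, 94.0 and 80.7 CPM in the Cre-positive libraries. All Cre-positive libraries lay above all controls, the female one nearest to them. The log2 fold change came to 0.57 (SE 0.131, adjusted p = 0.0923 in the quasi-likelihood test of edgeR). The log2 ratio was 0.50 in males and 0.45 in females, and the adjusted p was 0.0798 with sex as a term. It passed by DESeq2 (adjusted p = 0.00842), with no filter on low counts (adjusted p = 0.0170, edgeR) and with a replicate block (adjusted p = 0.0331, edgeR). In the other 11 of the 14 alternative fits it did not pass, with adjusted p up to 0.354 in edgeR's test.

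Slc35c1, the GDP-fucose carrier, had 201.8, 178.8 and 179.1 CPM in the controls and 282.2, 244.8 and 215.7 CPM in the Cre-positive libraries. The groups did not overlap, with a log2 fold change of 0.41 (SE 0.124, adjusted p = 0.163, edgeR). Slc35a1, the CMP-sialic acid carrier, had 34.5, 29.4 and 31.1 CPM in the controls and 46.1, 39.1 and 35.7 CPM in the Cre-positive libraries, also without overlap, with a log2 fold change of 0.35 (SE 0.122, adjusted p = 0.212, edgeR). In these 3 genes the first Cre-positive library was the highest of the 6 and the third the lowest of its group. Slc35b1 had 132.4, 105.5 and 92.0 CPM against 171.6, 151.1 and 117.0 CPM, with an overlap of the first control and the third Cre-positive library, and a log2 fold change of 0.41 (SE 0.175).

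Smaller values were found for the other carriers with a known substrate. Slc35b3, a PAPS carrier, had 28.7, 26.8 and 26.1 CPM in the controls and 37.0, 30.9 and 30.5 CPM in the Cre-positive libraries, without overlap (log2 fold change 0.27, SE 0.113). Slc35a3 stood at 0.21 (SE 0.110), Slc35b4, a carrier of UDP-xylose, at 0.18, the PAPS carrier Slc35b2 at 0.11, Slc35d2 at 0.13 and Slc35d1 at 0.04. All 5 had overlapping groups.

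Of the carriers with no settled substrate, Slc35f2, through which some cytotoxic compounds enter cells, had 89.3, 73.7 and 76.4 CPM in the controls and 54.6, 64.3 and 54.6 CPM in the Cre-positive libraries. The groups did not overlap, with a log2 fold change of -0.46 (SE 0.115, adjusted p = 0.107, edgeR), and DESeq2 called it lower (adjusted p = 0.0281). The other 13 of the 14 alternative fits did not call it. Slc35e3 had 7.48, 11.3 and 6.40 CPM against 5.07, 3.88 and 5.39 CPM, without overlap and at the lowest log2 fold change of the Slc35 carriers, -0.81 (SE 0.250, adjusted p = 0.171, edgeR). Slc35a4 was above its controls, with 88.5, 90.3 and 91.2 CPM in the controls and 113.2, 98.9 and 106.0 CPM in the Cre-positive libraries (log2 fold change 0.24, SE 0.0931, adjusted p = 0.250, edgeR). Its controls varied least, relative to their mean, among the 36 carriers tested. Slc35c2, Slc35a5, Slc35e1 and Slc35f5 had overlapping groups and log2 fold changes of -0.37, -0.31, -0.23 and -0.13, the last turning to 0.09 without control replicate 1. Slc35e2 and Slc35e4 stood at -0.05 and -0.03 and Slc35f6 at 0.13.

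**Figure D3:**
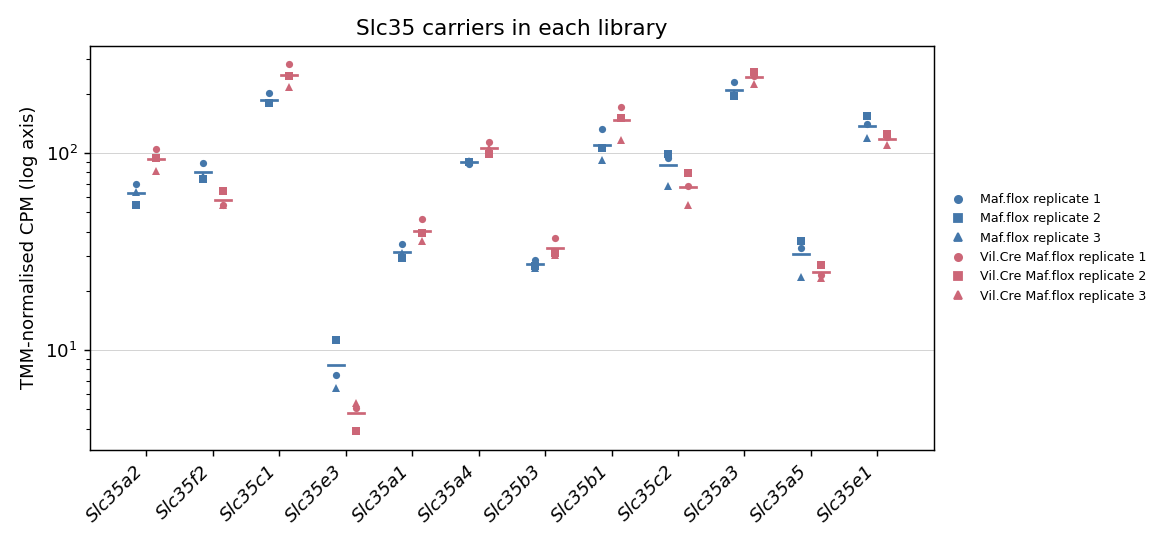
TMM-normalised CPM on a log axis for the 12 Slc35 carriers with the smallest p, from left to right, with 1 symbol per library and a line at each group mean. Slc35a2, Slc35c1, Slc35a1, Slc35a4 and Slc35b3 are higher in all 3 Cre-positive libraries than in any control, and Slc35f2 and Slc35e3 are lower in all 3.

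Set side by side, the plasma membrane carriers summed to 1000.4, 960.2 and 686.6 CPM in the controls and to 631.5, 817.9 and 617.3 CPM in the Cre-positive libraries. The Slc35 carriers summed to 1510, 1368 and 1262 CPM and to 1588, 1573 and 1340 CPM. In both classes the groups overlapped. Control replicate 3 was the lowest control for 8 of 16 plasma membrane and 12 of 20 Slc35 carriers tested, and Cre-positive replicate 3 was the lowest of its group for 7 and 15. The median over carriers of log2 CPM, relative to the mean control, was 0.10, 0.05 and -0.12 for plasma membrane carriers in the controls and -0.44, -0.10 and -0.23 in the Cre-positive libraries. For Slc35 carriers it was 0.13, -0.03 and -0.20, and 0.23, 0.16 and -0.04. By this median the lowest library of the plasma membrane class was Cre-positive replicate 1, and that of the Slc35 class was control replicate 3. By summed CPM the lowest was Cre-positive replicate 3 for plasma membrane carriers and again control replicate 3 for Slc35 carriers. Within sexes the median log2 ratio was -0.31 in males and -0.14 in females for plasma membrane carriers, and 0.05 and -0.03 for Slc35 carriers.

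**Figure D4:**
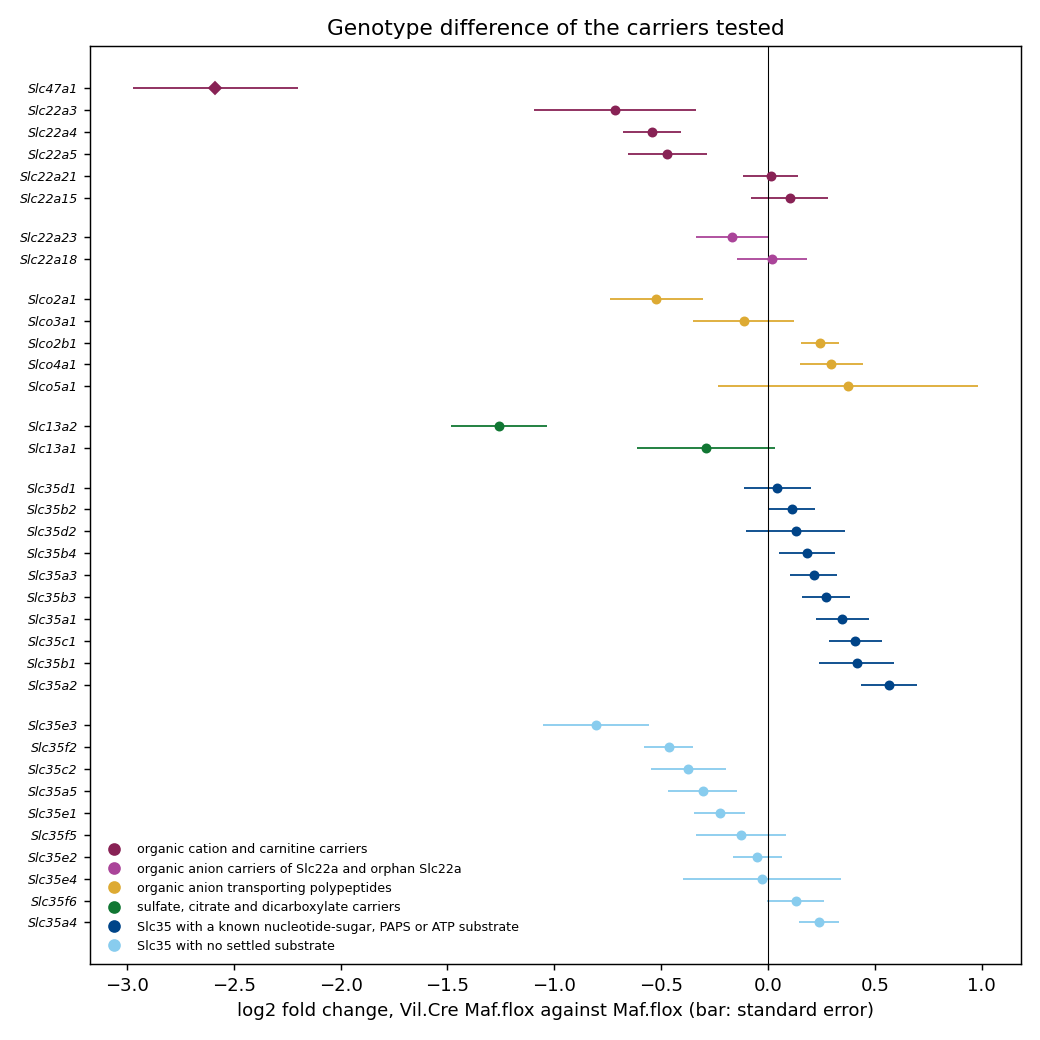
Log2 fold change of Vil.Cre Maf.flox against Maf.flox with its standard error for 35 of the 36 carriers tested, grouped and coloured by what they carry, with a diamond for the called Slc47a1. Slc47a1 at -2.59 and Slc13a2 at -1.26 stand to the left of all others, and the 10 Slc35 carriers with a known substrate lie to the right of 0, the lowest at 0.04.

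Other genes that work with these carriers were taken from 3 lists. Of 14 tested genes of drug efflux and organic solute transport, 9 were below 0 (median -0.10), 1 was called lower and 0 higher. Over all genes tested, 51.6% were below 0, 0.357% were called lower and 0.189% higher. Slc15a1, the proton-coupled peptide and drug transporter of the brush border, was the one called, with 357.0, 550.1 and 225.9 CPM in the controls and 66.5, 76.2 and 50.7 CPM in the Cre-positive libraries (log2 fold change -2.55, SE 0.332, adjusted p = 0.0365 in the quasi-likelihood test of edgeR). It lost its call with sex as a term, with no filter, without control replicate 1 and without any 1 of the Cre-positive libraries, with adjusted p between 0.0830 and 0.184 in edgeR's test. Abcc2 and Abcb1a, apical ATP-driven drug efflux pumps, were lower in every Cre-positive library than in any control and not called, with log2 fold changes of -1.84 (adjusted p = 0.0851, edgeR) and -1.31 (adjusted p = 0.150, edgeR). Both were called lower by DESeq2 and without control replicate 3 (adjusted p = 0.00576 and 0.0344, edgeR). Abcc1, a pump of the basolateral side in many epithelia, stood at 0.44 (adjusted p = 0.201, edgeR).

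Of 15 scaffolds and transcription factors of carrier genes, 14 were below 0 with a median of -0.17, beside 51.6% of all genes tested. By edgeR 0 were called, beside 0.546% of all genes tested. Of the 15, 4 had an unadjusted p under 0.05, all lower. Over all genes that share was 16.4%, 9.25% lower and 7.11% higher. Pdzk1, a PDZ scaffold that binds apical carriers, Slc22a4 and Slc22a5 among them, had 233.1, 217.8 and 90.0 CPM in the controls and 35.6, 53.3 and 35.9 CPM in the Cre-positive libraries (log2 fold change -2.12, SE 0.382, adjusted p = 0.0736, edgeR). It passed by DESeq2 (adjusted p = 2.07e-09) and without control replicate 3 (adjusted p = 0.000634, edgeR), and 37.5% of its exon length overlaps Gpr89 on the opposite strand. Slc9a3r1, the scaffold NHERF1, stood at -0.89, and the nuclear receptors Hnf4g and Ppara at -0.44 and -0.42. DESeq2 called Slc9a3r1 and Hnf4g lower, with adjusted p = 0.00335 and 0.0387, and so did edgeR without control replicate 3, with adjusted p = 0.0117 and 0.0221.

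Among 22 genes that make nucleotide sugars and PAPS, the substrates of the Slc35 carriers, 14 were above 0 and 8 below, with a median of 0.13. Of all genes tested, 51.6% were below 0. By edgeR 0 of the 22 were called, beside 0.546% of all genes tested. Of the 22, 7 had an unadjusted p under 0.05, all higher. Over all genes that share was 16.4%, 9.25% lower and 7.11% higher. Gmds, which starts GDP-fucose synthesis, had 275.4, 259.2 and 291.8 CPM in the controls and 613.8, 447.6 and 367.8 CPM in the Cre-positive libraries (log2 fold change 0.79, SE 0.180, adjusted p = 0.0891, edgeR). Gmppb, which makes GDP-mannose, and Nans, which makes sialic acid, stood at 0.51 (adjusted p = 0.0866, edgeR) and 0.46 (adjusted p = 0.146, edgeR). In each of these 3 genes all Cre-positive libraries lay above all controls, the first the highest. DESeq2 called all 3 higher, with adjusted p from 0.00123 to 0.0382, and limma-voom none of them. Exons of Gmppb overlap Rnf123 over 33.6% of their length and those of Nans overlap Trim14 over 29.6%, on the opposite strand. The 7 goblet cell markers, from cells that make much glycosylated mucin, summed to 15262 to 34018 CPM in the controls and 15176 to 28876 CPM in the Cre-positive libraries, with overlapping groups. Of the mean goblet sum of 25892 CPM in the controls and 21708 CPM with Cre, Fcgbp alone gave 12187 and 10252 CPM. By log2 fold change 5 of the 7 were below 0, and Agr2 and Spink4 were above it at 0.90 and 0.43. None was called.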

How the data were processed

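Counts and FPKM per gene were deposited by the authors in 1 table. The submitters' processing notes name the build GRCm38 (mm10), the aligner HISAT2 (2.0.5), the counter featureCounts (1.5.0-p3), and DESeq2. The use of strand in counting is not given in the sources used here. As deposited, the counts are whole numbers without normalisation. The FPKM deposited by the authors equal the count over gene length and 1 library size, 0.953 to 1.07 times the summed counts. FPKM were described, not tested.

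Counts were tested with edgeR 4.0.16 (R 4.3.3): filterByExpr (least count 10), TMM, the robust quasi-likelihood F test on genotype and Benjamini-Hochberg adjustment over 13740 genes. The standard error (SE) is the log2 fold change over the root of F. Per-library class medians use a prior count of 2. The test was also run on counts simulated from its own fitted spread, which cannot show that its model holds for these data. Pairs of replicates gave a chi-square of 36.0 to 132 per gene, so none was a repeated library.

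Sex was read from Xist and Y-linked counts. Members and lists were chosen with earlier results of these data known. Values are given for Maf, called members, the 14 plasma membrane and 12 Slc35 carriers with the smallest p, the highest FPKM of each family, and 4 genes per partner list, except 1 carrier and 1 partner gene that are counted in the totals but not reported here; other members named were chosen after their values were seen. Alternatives were RLE and upper quartile scaling, no filter or a least count of 50, DESeq2 1.42.0, limma-voom (limma 3.58.1), a replicate block, FDR 0.1 and each library left out; sex as a term was chosen after seeing the data. All 46 members had the same coordinates in GENCODE M21.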

Additional observations from a re-analysis of the deposited data

How the results depend on the processing

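Against 75 genes called in all, there were 365 with no filter, 761 with DESeq2, 34 with limma-voom, 38 with sex as a term, 372 at FDR 0.1 and 8 to 701 with 1 library left out, the 701 without control replicate 3. Those 701 were among 14029 genes tested in that fit, 577 of them lower and 124 higher. Against 1 plasma membrane carrier called, there were 2 with upper quartile scaling, 3 with DESeq2, 0 with limma-voom, 0 with sex as a term, 2 at FDR 0.1 and 0 to 5 with 1 library left out, the 5 without control replicate 3 (Slc47a1, Slc13a2, Slc22a4, Slc22a5 and Slco2a1). These 5 of 16 tested were all lower, in a fit where most calls over all genes were lower too. Against 0 Slc35 carriers, there were 1 with no filter, 2 with DESeq2, 1 at FDR 0.1 and 0 with any 1 library left out. RLE scaling and the stricter filter gave 1 and 0 carriers as before. A replicate block gave 440 genes, 2 plasma membrane carriers (Slc47a1 and Slc13a2) and 1 Slc35 carrier (Slc35a2). The correlations of deviations between libraries of the same number were 0.0917, -0.0256 and 0.269, and some libraries were closer to another number than to their own, so the block pairs libraries that share only a number.

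Class medians moved by less than the spread between libraries, an SD of 0.1475 for plasma membrane and 0.1534 for Slc35 carriers. That spread was near the size of the medians themselves (-0.17 and 0.12), so this cannot show that they were stable. With 1 library left out they ran from -0.25 to -0.07 for plasma membrane and 0.00 to 0.21 for Slc35 carriers, and the Slc35 median was -0.00 with sex as a term. The sign turned with sex as a term for Slc22a18 (-0.12), Slc35d1 (-0.0708), Slc35d2 (-0.0616) and Slco3a1 (0.0869). With 1 library left out, it turned for Slc22a18 (-0.10 to 0.16), Slc35d1 (-0.0611 to 0.18), Slco3a1 (-0.35 to 0.0852), Slc22a23 (-0.32 to 0.0203), Slc22a21 (-0.0433 to 0.11), Slc35d2 (-0.0185 to 0.32), Slc35e2 (-0.14 to 0.0291), Slc35e4 (-0.32 to 0.27) and Slc35f5 (-0.31 to 0.0857). The cause was not tested. No called carrier changed sign in these fits. A carrier at 1 CPM has 17.0 to 23.8 counts, so counting error weighs most on carriers below that level.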
